A study of Mus musculus with 3 samples.

Results

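Alternative activation is the state that macrophages and dendritic cells take up under interleukin 4 or interleukin 13, and 10 of its marker genes were followed here in mouse bone marrow-derived dendritic cells. The members were the chemokine genes Ccl17, Ccl22 and Ccl24, the lectin genes Mgl2, Clec10a and Mrc1, Retnla and Chil3, which encode secreted proteins, the enzyme gene Arg1 and the transcription factor gene Klf4. They were taken by name, as every probe set to which the platform annotation gives a single gene symbol equal to a member. This gave 11 probe sets for the 10 members, of 18193 genes on the array, with 2 probe sets for Klf4 and 1 for each of the other 9 members. One further probe set is annotated to both Chil3 and Chil4 and was not used.

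Marrow of female mice aged 6 weeks was cultured with GM-CSF at 20 ng/mL, and the nonadherent cells of day 7 were used. They then received a stimulus labelled PTX, which the labels do not spell out, at 100 ng/mL, or lipopolysaccharide (LPS), which bacteria carry and Toll-like receptor 4 senses, at a dose of 1 µg/mL, or PBS as the control, in each case for 24 h. The strain is labelled C57BL/7 for the PTX sample and C57BL/6 for the LPS and PBS samples. Each of the 3 groups was 1 Affymetrix array, so no spread within a group, no test and no p-value could be had, and a difference between cultures or mice cannot be told apart from one between groups.

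Interleukin 4 and interleukin 13 signal through the interleukin 4 receptor alpha chain to the transcription factor STAT6, which drives most of these genes in mouse macrophages. Among the products, CCL17 and CCL22 attract T helper 2 and regulatory T cells through the receptor CCR4, and CCL24 attracts eosinophils through CCR3. Dendritic cells that carry the lectin encoded by Mgl2 are known for starting T helper 2 responses in mouse skin.

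The windows of 250 bases before the annotated start are shown for 5 members, because they set genes that diverged beside genes of the same kind. RefSeq (GRCm38.p6) promoter sequences were matched by symbol for 7 of the 10 members, namely Ccl17, Ccl22, Mgl2, Mrc1, Retnla, Chil3 and Klf4. Ccl17 and Ccl22 are the pair of chemokine genes that parted after PTX, Retnla and Chil3 are the pair of secreted protein genes of which 1 differed, and Mgl2 had the lowest difference of the members in LPS against PBS. Capitals mark matches to the motifs given after them.
Ccl17, chr8:94810203-94810452, + strand: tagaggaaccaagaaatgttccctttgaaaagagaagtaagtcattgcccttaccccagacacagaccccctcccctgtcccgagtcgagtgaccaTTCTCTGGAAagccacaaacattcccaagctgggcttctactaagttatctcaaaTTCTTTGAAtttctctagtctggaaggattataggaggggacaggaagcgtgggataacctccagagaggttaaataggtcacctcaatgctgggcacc
Ccl22, chr8:94745434-94745683, + strand: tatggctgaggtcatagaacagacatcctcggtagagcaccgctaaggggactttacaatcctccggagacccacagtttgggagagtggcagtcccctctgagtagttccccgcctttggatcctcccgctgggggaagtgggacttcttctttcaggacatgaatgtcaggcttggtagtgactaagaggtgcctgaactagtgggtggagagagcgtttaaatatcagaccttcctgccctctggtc
Retnla, chr16:48842359-48842608, + strand: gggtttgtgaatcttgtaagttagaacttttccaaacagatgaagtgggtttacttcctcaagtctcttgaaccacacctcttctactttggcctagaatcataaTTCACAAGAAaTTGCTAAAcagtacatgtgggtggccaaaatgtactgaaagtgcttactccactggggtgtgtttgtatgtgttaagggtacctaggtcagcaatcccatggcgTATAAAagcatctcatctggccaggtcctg
Chil3, chr3:106167565-106167814, - strand: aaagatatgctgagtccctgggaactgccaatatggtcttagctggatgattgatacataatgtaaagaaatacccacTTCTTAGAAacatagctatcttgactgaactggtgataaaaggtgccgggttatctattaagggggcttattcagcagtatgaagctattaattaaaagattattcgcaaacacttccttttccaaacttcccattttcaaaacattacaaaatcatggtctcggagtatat
Mgl2, chr11:70130107-70130356, + strand: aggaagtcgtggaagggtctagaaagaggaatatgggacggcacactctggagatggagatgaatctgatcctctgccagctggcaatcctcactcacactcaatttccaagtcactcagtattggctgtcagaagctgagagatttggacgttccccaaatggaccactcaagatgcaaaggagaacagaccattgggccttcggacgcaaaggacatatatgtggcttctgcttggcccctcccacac

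Motif letters were searched on both strands, except that TATAAA was searched on the gene's strand, and the share of 32536 distinct promoter windows of the same length that hold each is given. TTCNNNNGAA, the spacing preferred by STAT6, was held by 5.89% of all windows and by those of Ccl17 (TTCTCTGGAA at -154 to -145 from the start) and Retnla (TTCACAAGAA at -145 to -136). TTCNNNGAA, the spacing of other STAT factors, was held by 7.04% of windows and by those of Ccl17 (TTCTTTGAA at -99 to -91) and Chil3 (TTCTTAGAA at -172 to -164). A C/EBP-type TTGCNNAA, present in 9.57% of windows, lay beside the STAT6-type match of Retnla at -134 to -127, where it read TTGCTAAA. TATAAA, present in 7.55% of windows, was found for Retnla at -30 to -25. The Ccl22, Mgl2, Mrc1 and Klf4 windows held none of these letters, and none of the 7 members' windows held GAAANNGAAA (interferon-response type, 2.98% of windows), GGGNNTTTCC (a kappaB form, 1.4%) or TGANTCA (AP-1 type, 6.73%). These are matches of letters and not binding sites.

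Values are linear intensities as deposited, and differences are on the log2(intensity + 16) scale, which understates those of dim probe sets. A probe set counted as measured if it reached, on at least 1 array, an intensity of 78.9, the median of all noncontrol values. All 10 members were measured, among 12299 genes, and a difference of at least 2-fold was counted. The median noncontrol intensity was 86.9 (PTX), 65.3 (LPS) and 85.7 (PBS). In LPS against PBS 26 of 27 poly-A control probe sets (median 0.25) and 14 of 18 hybridization control probe sets (median 0.20) were higher. In PTX against PBS 9 of 27 (median -0.07) and 10 of 18 (median 0.01) were higher. The 3′ to 5′ ratio of 18S ribosomal RNA set the LPS array apart further, as it was 0.198 (PTX), 1.95 (LPS) and 0.260 (PBS), whereas those of beta-actin (1.40, 1.39 and 1.33) and Gapdh (1.12, 0.963 and 1.02) did not. Among 5519 genes with several measured probe sets, the probe sets of 1 gene lay at least 2-fold apart in their difference for 37.8% of genes in LPS against PBS, for 3.86% when PTX was set against PBS and for 40.3% when it was set against LPS. These values touch every comparison with the LPS array below, in which 9 of the 10 members rest on 1 probe set, and their part in the results was not tested.

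The label of dendritic cells was set against fixed markers. Itgax, which encodes CD11c, read 1294, 1691 and 2383 on the PTX, LPS and PBS arrays. Cd74, the MHC class II invariant chain gene, read 7057, 10839 and 6291. Zbtb46, a transcription factor gene of conventional dendritic cells, read 173, 190 and 236, while Xcr1 and Siglech were under the measured level on all 3 arrays. The progenitor receptor gene Flt3 (253, 181 and 62.1) and the transcription factor gene Irf8 (2005, 1874 and 886) were at least 2-fold higher after both stimuli than after PBS, and Batf3 (375, 819 and 365) was so after LPS. The PBS reading of Flt3 lay under the measured level. Macrophage and monocyte markers were bright as well, and their summed intensity over 10 genes with a probe set was 42464 (PTX), 34425 (LPS) and 24919 (PBS), with all 10 at the measured level after PTX, 9 after LPS and all 10 after PBS. Markers of both kinds of cell were thus above the measured level, and in bulk RNA fewer cells of a type and less RNA per cell cannot be told apart.

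**Figure D1:**
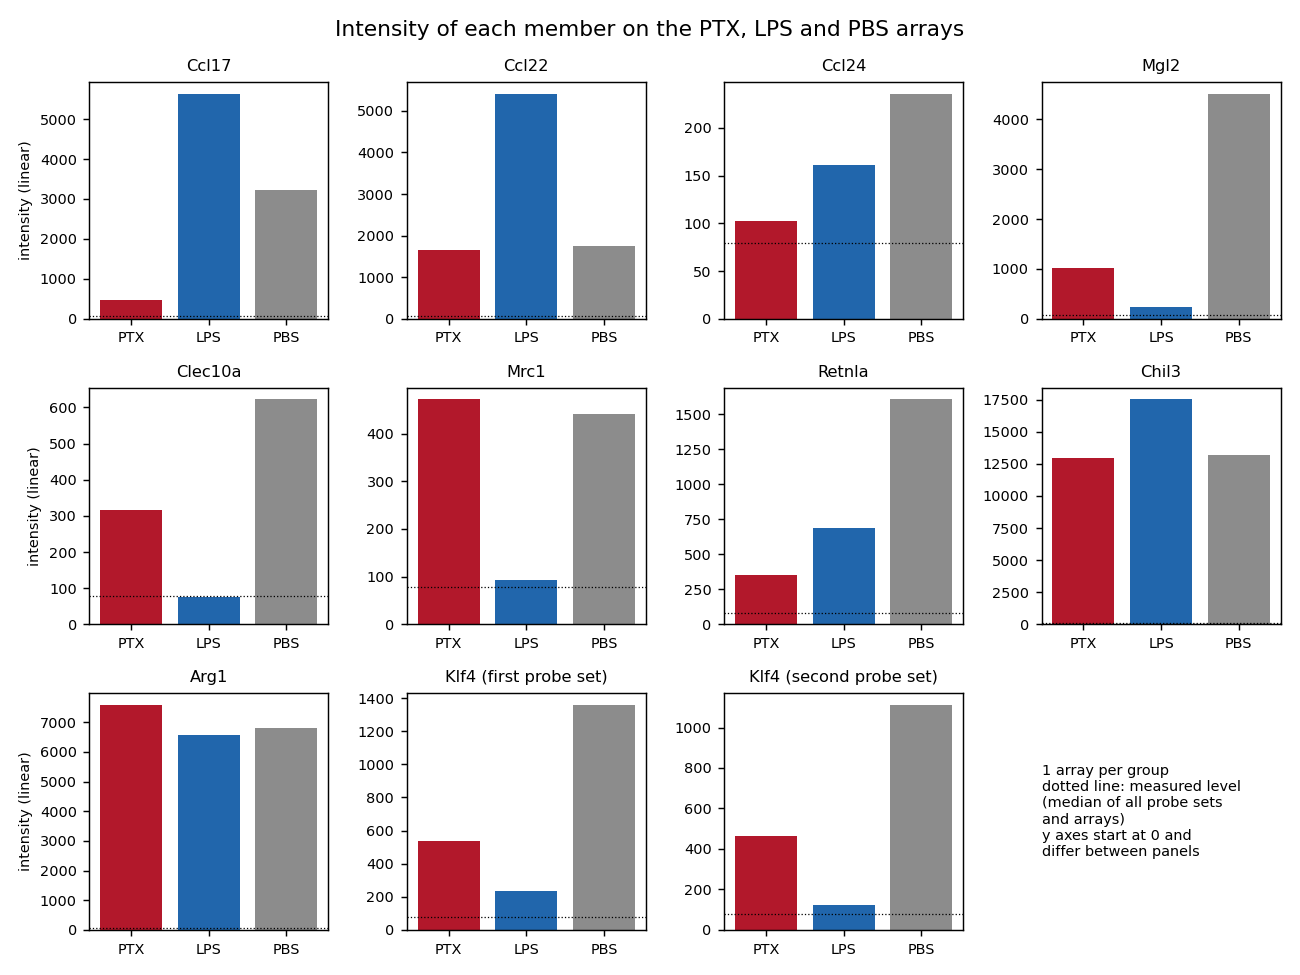
Linear intensity (y axis, from 0, scaled separately in each panel) of the 11 member probe sets on the PTX, LPS and PBS arrays (x axis), with 1 array per group and a dotted line at the measured level of 78.9. Mgl2, Clec10a, Mrc1 and Klf4 had their shortest bar on the LPS array, as did Arg1 by a small margin, while Ccl17, Ccl24 and Retnla had it on the PTX array, as did Ccl22 and Chil3 by a small margin.

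In LPS against PBS the question was how these genes stood after a Toll-like receptor 4 ligand. All 3 lectin genes, Klf4 and Retnla were at least 2-fold lower and Ccl22 was at least 2-fold higher after LPS, while Ccl17, Ccl24, Chil3 and Arg1 stayed within 2-fold. Of the 10 members 5 were lower, against 13% of all measured genes, and 1 was higher, against 6.5% of all measured genes. The median difference was -0.86 over the members and -0.08 over all measured genes. In PTX against PBS, which asks how the genes stood after the second stimulus, Ccl17, Mgl2, Retnla, Klf4 and Ccl24 were at least 2-fold lower and no member was higher. These 5 of 10 lower members stood beside 2.37% of all measured genes called lower and 3.04% called higher, and the medians were -1.02 over the members and 0.01 over all measured genes. Both comparisons share the PBS array, so the differences of a member in them are not independent.

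PTX against LPS sets the stimuli against each other. Mgl2, Clec10a, Mrc1 and Klf4 were at least 2-fold higher after PTX than after LPS, and Ccl17 and Ccl22 were at least 2-fold lower. These 4 higher members stood beside 13.7% of all measured genes called higher, and the 2 lower members beside 6.24% called lower. The median difference was -0.11 over the members and 0.09 over all measured genes. Among all called genes the share that was higher depended on the scaling: it was 33.3% in LPS against PBS as deposited, 61.4% after median scaling and 45.6% after quantile normalization, and 68.7%, 37.3% and 53.2% in PTX against LPS.

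**Figure D2:**
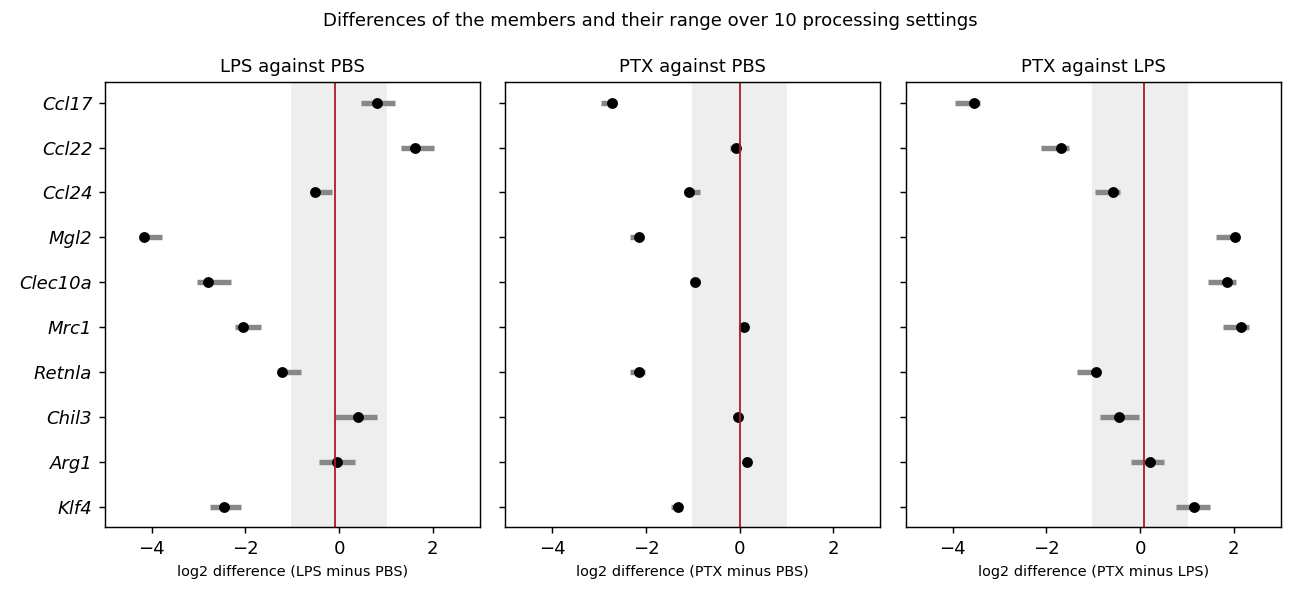
Log2 difference of each member (dots) in the 3 comparisons, with grey bars for the range over the values as deposited and up to 9 other processing settings, a shaded band for differences within 2-fold and a red line for the median of all measured genes. Mgl2 lies at -4.17 in LPS against PBS and Ccl17 at -2.73 in PTX against PBS, and the bars are shorter in PTX against PBS than in the comparisons with the LPS array.

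Among the chemokine genes, Ccl17 differed in opposite directions after the stimuli, within 2-fold after LPS. It read 470.5 after PTX, 5637 after LPS and 3217 after PBS. The PTX reading was thus the low one, at a log2 difference of -2.73 against PBS (6.84-fold lower as a ratio of intensities without the pseudocount, as are the folds below) and of -3.54 against LPS, whereas LPS against PBS was 0.81. Only 13 of the 12299 measured genes, Ccl17 among them, were as low in PTX against PBS, and 18 were as low in PTX against LPS. Ranked among all probe sets of an array, Ccl17 stood at percentile 83.1 (PTX), 98.9 (LPS) and 98.2 (PBS).

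Ccl22, whose product shares the receptor CCR4 with CCL17, had the LPS array as its high one, with intensities of 1658 (PTX), 5414 (LPS) and 1740.3 (PBS). Its difference was 1.63 in LPS against PBS, -0.07 in PTX against PBS and -1.70 in PTX against LPS. In the RefSeq gene table Ccl22 and Ccl17 lie on either side of Cx3cl1, which encodes the chemokine fractalkine. The brightest Cx3cl1 probe set read 214, 124 and 181 on the PTX, LPS and PBS arrays, within 2-fold in every comparison. Among these 3 neighbours Ccl17 alone was 2-fold apart in PTX against PBS.

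Ccl24, an eotaxin gene, was near the measured level, with 102 (PTX), 161 (LPS) and 236 (PBS). It was lower after PTX than after PBS by a log2 difference of -1.09, and within 2-fold in LPS against PBS (-0.51) and PTX against LPS (-0.58). With a pseudocount of 64 its PTX against PBS difference was -0.85, within 2-fold. Of the other type 2 and neighbouring chemokine genes, Ccl8 (177, 174 and 132) and Cx3cl1 were measured and within 2-fold in all comparisons, and Ccl1 and Ccl11 were under the measured level. The receptor genes Ccr3, Ccr4 and Ccr8 were under that level on all 3 arrays, with Ccr4 at 29.3 (PTX), 34.1 (LPS) and 38.1 (PBS).

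Each of the 3 lectin genes had its lowest reading on the LPS array. Mgl2 encodes a C-type lectin for galactose and N-acetylgalactosamine and read 1011 after PTX, 236 after LPS and 4517 after PBS. Its log2 difference was -4.17 in LPS against PBS (19.1-fold lower), -2.14 in PTX against PBS (4.47-fold lower) and 2.02 in PTX against LPS. Mgl2 was 1 of 10 measured genes as low in LPS against PBS and 1 of 44 as low in PTX against PBS. Its rank on the array stood at percentile 91.3 (PTX), 76.2 (LPS) and 98.9 (PBS).

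Clec10a, the neighbour of Mgl2 on chromosome 11 and the gene of a related lectin, was ordered in the same way, at 317 (PTX), 75.6 (LPS) and 623 (PBS). The LPS reading lay under the measured level. Its differences were -2.80 in LPS against PBS, -0.94 in PTX against PBS and 1.86 in PTX against LPS, and the PTX against PBS value was just past 2-fold after quantile normalization (-1.01), as it was after trimmed mean scaling. Asgr2, the protein-coding neighbour on the other side of Mgl2 and a lectin gene of the asialoglycoprotein receptor, read 159, 11.0 and 675 on the PTX, LPS and PBS arrays. It was named after its values were seen, and the values of Slc16a11, the neighbour on the other side of Clec10a, are not given here.

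Mrc1, the gene of the macrophage mannose receptor, parted from the other lectins after PTX. It read 472 after PTX, 94.0 after LPS and 441 after PBS, so that the LPS reading alone was low. The differences were -2.05 in LPS against PBS, 0.10 in PTX against PBS and 2.15 in PTX against LPS. Over the 3 lectin genes the PTX against LPS difference ran from 1.86 to 2.15, a narrower span than the -2.14 to 0.10 of PTX against PBS. Both ends of the narrower span rest on dim LPS readings, those of Clec10a and Mrc1.

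Retnla encodes RELM-alpha, a secreted product of alternatively activated mouse macrophages. It read 351 (PTX), 686 (LPS) and 1607 (PBS), the reverse of the lectins in that the PTX array was the lowest. Its differences were -2.15 in PTX against PBS (4.58-fold lower), -1.21 in LPS against PBS and -0.94 in PTX against LPS. The LPS call was lost after median scaling (-0.82), and the PTX against LPS value passed 2-fold under median (-1.34), quantile (-1.09) and trimmed mean scaling (-1.03). Its relative Retnlb was under the measured level on all arrays.

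Chil3 encodes the chitinase-like protein Ym1, a further macrophage marker of the type 2 state in mice. It read 12932 (PTX), 17534 (LPS) and 13152 (PBS), near the top of each array at percentile 99.97 (PTX), 99.97 (LPS) and 99.98 (PBS), where saturation could not be checked from the deposited values. All its differences were within 2-fold, at 0.41 in LPS against PBS, -0.02 in PTX against PBS and -0.44 in PTX against LPS, and the LPS against PBS value turned to -0.08 under quantile normalization. Chil4, its neighbour, read 966, 1226 and 1187 on the PTX, LPS and PBS arrays.

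Arg1, the gene of the arginase that splits arginine into ornithine and urea, read 7593 (PTX), 6554 (LPS) and 6791 (PBS). Its differences were 0.16 in PTX against PBS, -0.05 in LPS against PBS and 0.21 in PTX against LPS, and the sign of the comparisons with LPS changed with the scaling (-0.43 to 0.34 and -0.20 to 0.51). Its mitochondrial counterpart Arg2 was the high one after PTX, with 1558 (PTX), 656 (LPS) and 368 (PBS), a PTX against PBS difference of 2.03 that its other probe set gave as 2.02. Nos2, whose nitric oxide synthase competes for arginine, was above the measured level on the LPS array alone, at 36.6 (PTX), 213 (LPS) and 39.0 (PBS). Slc7a2, an arginine transporter gene, read 2233, 7543 and 2951, and it was higher in LPS against PBS (1.35) and lower in PTX against LPS (-1.75).

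Klf4, a zinc finger transcription factor that works with STAT6 in mouse macrophages, had low LPS readings in both of its probe sets. The first read 539 (PTX), 233 (LPS) and 1360.3 (PBS), and the second 464 (PTX), 121 (LPS) and 1113 (PBS). Both thus placed the PTX array between the LPS and PBS arrays. The differences were -2.47 and -3.05 in LPS against PBS, -1.31 and -1.23 in PTX against PBS, and 1.16 and 1.81 in PTX against LPS. The first, which represented the gene, was within 2-fold in PTX against LPS after median scaling (0.76) and quantile normalization (0.88). Klf2, a related gene, read 1227 (PTX), 855 (LPS) and 2296 (PBS) and was at least 2-fold lower in LPS against PBS (-1.41) but not in PTX against PBS (-0.89).

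**Figure D3:**
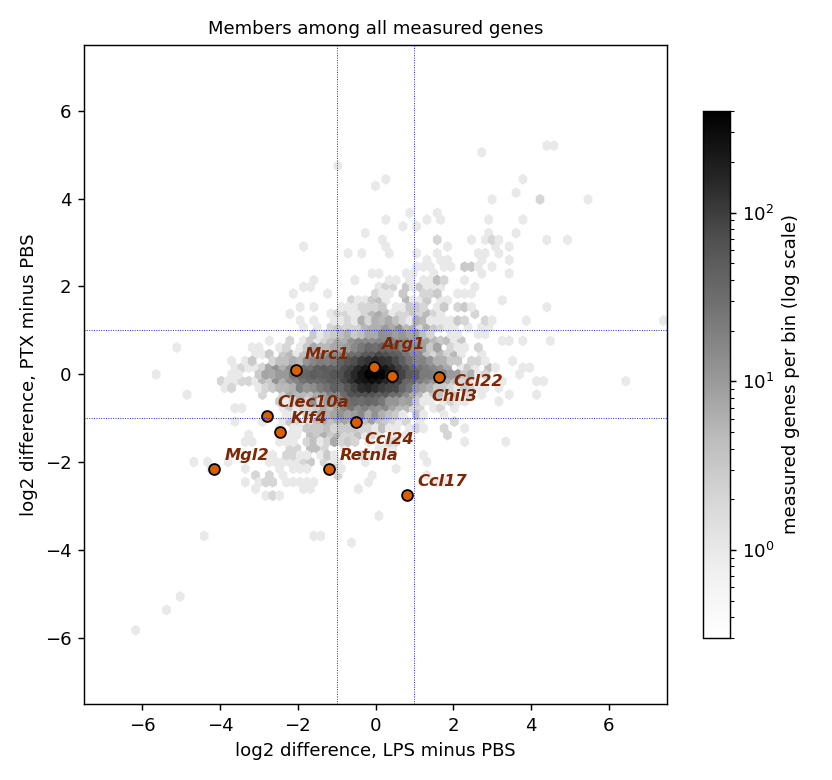
Log2 difference in LPS against PBS (x axis) and PTX against PBS (y axis) of the 10 members (orange) over the density of the measured genes (grey hexagons, log scale), with dotted lines at 2-fold; genes beyond the axes are not drawn. Mgl2, Klf4 and Retnla lie in the corner that is lower after both stimuli, Ccl17 lies low on the y axis alone, and both axes use the same PBS array.

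Set side by side, 3 members were at least 2-fold lower after both stimuli (Mgl2, Klf4 and Retnla), 2 after LPS alone (Clec10a and Mrc1) and 2 after PTX alone (Ccl17 and Ccl24), and 2 were within 2-fold after either (Chil3 and Arg1). Ccl22 was at least 2-fold higher after LPS and within 2-fold after PTX. Clec10a was close to 2-fold lower in PTX against PBS (-0.94), and Retnla was within 2-fold in LPS against PBS under median scaling (-0.82). The share of all measured genes with each of these patterns was not counted, so the patterns cannot be called particular to the members. Over all measured genes, 13% were lower in LPS against PBS and 2.37% in PTX against PBS, and both comparisons use the same PBS array. A scaling shifted the median of all genes in LPS against PBS from -0.08 as deposited to 0.31 (median scaling) or 0.11 (quantile). Relative to that median, over the values as deposited and 3 scalings, Mgl2 lay between -4.23 and -4.09, Clec10a between -2.77 and -2.66, Klf4 between -2.46 and -2.39, Mrc1 between -2.01 and -1.86, Retnla between -1.36 and -1.13 and Ccl22 between 1.21 and 1.71.

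The machinery of interleukin 4 and interleukin 13 signalling was read by the probe set that represents each gene. Of 18 listed genes 16 were measured, and none was 2-fold apart in PTX against PBS, beside 3.04% higher and 2.37% lower over all measured genes, with a list median of 0.07. In LPS against PBS 1 was higher and 2 were lower, shares near the 6.5% and 13% of all measured genes, at a median of -0.21. The higher one was Socs1, a feedback inhibitor of cytokine receptors, with 78.7 (PTX), 581 (LPS) and 67.3 (PBS), a difference of 2.84. Socs1 counted as measured through the LPS array alone, where it was high. The lower ones were Irs2, an adaptor of the insulin and interleukin 4 receptors (320, 56.6 and 236, -1.80), and Klf2. Stat6 read 1685, 1263 and 1479 on the PTX, LPS and PBS arrays, within 2-fold throughout. Other probe sets of Jak1 (-4.00), Klf6 (-2.24 and -1.89) and Il13ra1 (-1.95, 1.04 and 1.16) were past 2-fold in LPS against PBS.

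Il4ra, the gene of the receptor's alpha chain, gave unequal readings. Its brightest probe set read 634 (PTX), 606 (LPS) and 393 (PBS), within 2-fold, whereas another read 119, 502 and 80.5, a difference of 2.42 in LPS against PBS. Irf4, a factor of the type 2 programme in dendritic cells, read 348, 253 and 421. Il4 itself was under the measured level, at 26.2 (PTX), 28.3 (LPS) and 24.4 (PBS), and Il13 read 258, 152 and 218. In PTX against LPS 1 gene of the list was higher (Irs2, 2.21) and 2 were lower (Socs1 -2.66 and the STAT-induced inhibitor gene Cish -1.19), beside 13.7% and 6.24% of all measured genes. Irs2 was under the measured level on the LPS array, and Socs1 reached it there alone. Other probe sets of Jak1 (3.80), Il13ra1 (2.13), Klf6 (2.01 and 1.61), Il4ra (-1.94) and Cebpb (-1.10) were also past 2-fold in PTX against LPS. The counts of the list in that comparison thus depend on the probe set that represents each gene.

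**Figure D4:**
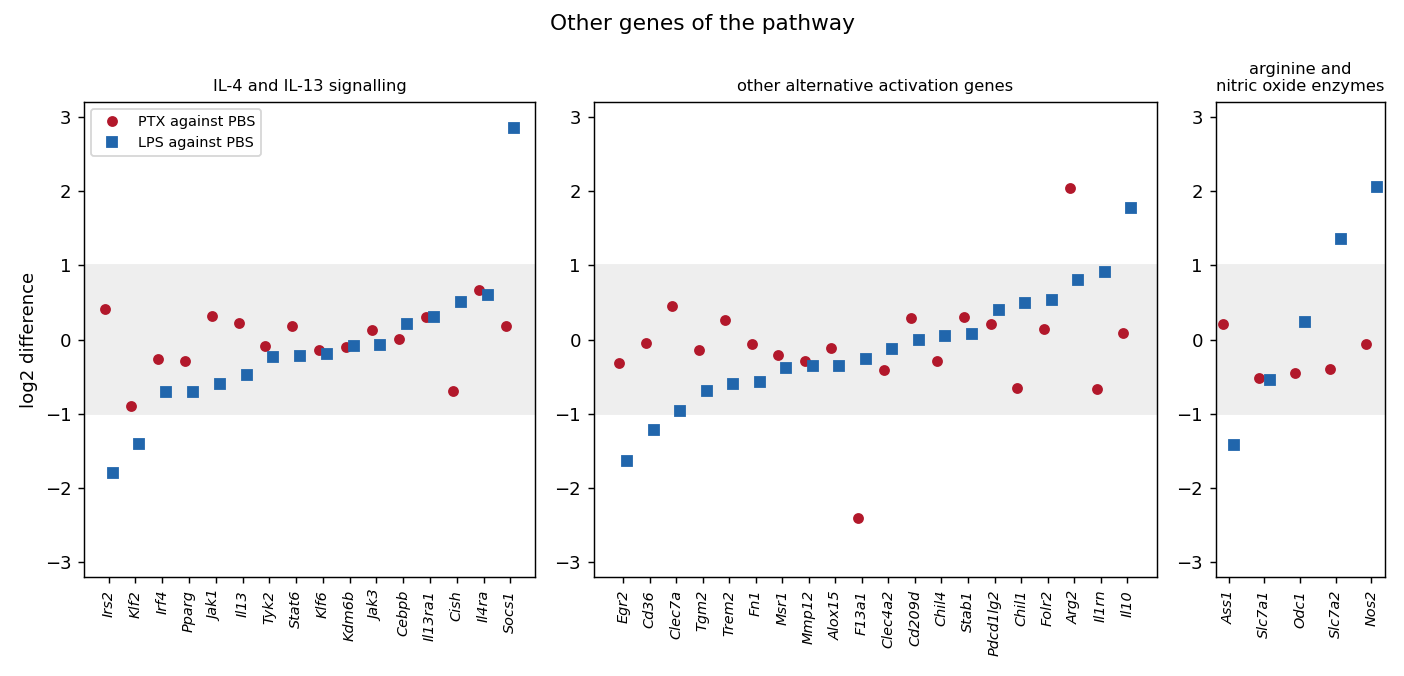
Log2 difference (y axis) in PTX against PBS (red circles) and LPS against PBS (blue squares) of the measured genes (x axis, 1 probe set each) of 3 further lists, with a shaded band for differences within 2-fold. In the signalling list no red circle leaves the band, and Socs1 (2.84), Irs2 (-1.80) and Klf2 (-1.41) do so after LPS.

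Of 24 other genes tied to alternative activation 20 were measured. In PTX against PBS 1 was higher (Arg2) and 1 lower (F13a1, the gene of a coagulation factor subunit, with 141 after PTX, 677 after LPS and 813 after PBS, -2.40), at a median of -0.08, beside 3.04% and 2.37% of all measured genes. In LPS against PBS 1 was higher (Il10, an anti-inflammatory cytokine gene, 53.3, 205 and 49.0, 1.76) and 2 were lower (the transcription factor gene Egr2, -1.63, and the fatty acid receptor gene Cd36, -1.22), at a median of -0.19, beside 6.5% and 13% of all measured genes. Other probe sets differed here: those of the interleukin 1 receptor antagonist gene Il1rn gave 0.91 (the one used), 2.08 and 2.92, and those of the fibronectin gene Fn1 -0.57 (the one used) and -2.72. Those of Msr1 gave -0.38 (the one used), 0.75, 0.67 and -1.26, so that its direction depended on the probe set. In PTX against LPS 4 were higher, namely the beta-glucan receptor gene Clec7a (1.40), Egr2 (1.31), Arg2 (1.23) and Cd36 (1.17), and 4 were lower, namely F13a1 (-2.14), Il10 (-1.67), Il1rn (-1.58) and the chitinase-like gene Chil1 (-1.14), beside 13.7% and 6.24% of all measured genes. Chil1 (35.8, 98.1 and 65.5) and Il10 counted as measured through the LPS array alone, where they were high. The median of the list in PTX against LPS was 0.20, and other probe sets of Fn1 (2.30) and Msr1 (1.10) were past 2-fold there. Among 5 arginine and nitric oxide genes, Nos2 (2.06) and Slc7a2 were higher and Ass1, an arginine synthesis gene, was lower (-1.43) in LPS against PBS, beside 6.5% and 13% of all measured genes. Ass1 was under the measured level on the LPS array (37.2), and Nos2 reached it there alone. In PTX against PBS none was 2-fold apart by the probe set that represents it, beside 3.04% higher and 2.37% lower over all measured genes. Of the other probe sets of Slc7a2, however, a pair was at least 2-fold lower in PTX against PBS (-1.12 and -1.24). In LPS against PBS the probe sets of Slc7a2 ran from 0.42 to 3.66. In PTX against LPS 1 gene of the list was higher (Ass1, 1.63) and 2 were lower (Nos2 -2.12 and Slc7a2 -1.75), beside 13.7% and 6.24% of all measured genes.

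Markers of other cells moved beside these genes. Of 10 macrophage and monocyte genes, 3 were at least 2-fold higher in PTX against PBS and none was lower, beside 3.04% and 2.37% of all measured genes. In LPS against PBS 3 were higher and 1 was lower, beside 6.5% and 13% of all measured genes. The lower one was the chemokine receptor gene Ccr2, at 4448 (PTX), 71.7 (LPS, under the measured level) and 2909 (PBS), a difference of -5.06. In PTX against LPS, where Mgl2, Clec10a, Mrc1 and Klf4 were higher, 6 of the 10 were higher and none lower (median 1.46), beside 13.7% and 6.24% of all measured genes. Ccr2 was among these 6 (5.67). The summed intensity of 8 neutrophil genes was 5520.5 (PTX), 11985 (LPS) and 10539.8 (PBS). Of these, 1 of 6 measured genes was lower in PTX against PBS (S100a9, -1.82), beside 2.37% of all measured genes, and the other measured ones ran from -0.72 to -0.24. The summed intensity of 11 eosinophil, basophil and mast cell genes was 549 (PTX), 2384 (LPS) and 839 (PBS), and the high LPS sum came from the granule protein genes Prg2 (31.4, 1274 and 117) and Cpa3 (74.2, 549.6 and 96.3). Siglecf, the gene of an eosinophil surface receptor, had its high reading on the PBS array, at 63.1 (PTX), 43.9 (LPS) and 250.2 (PBS). It counted as measured through the PBS array alone. Summed intensities were 5406, 3167 and 3898 for 7 T cell genes, of which Il7r gave most, 618, 583 and 617 for 5 B cell genes, and 401, 378 and 303 for 5 NK cell genes. They were 432, 139 and 422 for 4 erythroid genes, 345, 698 and 325 for 6 stromal genes, shifts carried by Slc4a1 (323, 32.2 and 340.5) and Dcn (52.5, 373 and 40.8), and 25420.3, 32849 and 22617 for 11 dendritic cell genes. Dcn counted as measured through the LPS array alone, where it was high, and Slc4a1 was under the measured level on that array. The epithelial alarmin genes Il33, Il25 and Tslp were under the measured level. Every summed list holds unmeasured genes except the macrophage list, no marker reads 0 because the lowest deposited value is 1, and the part of these cells in the members' differences was not tested.

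The genes whose pair of differences (LPS against PBS, PTX against PBS) lay nearest to a member's, by Euclidean distance over the 3 arrays, were listed for the 8 members that were 2-fold apart. Ccl17 had distant neighbours, with Cxcl2 at 0.66, Phlda1 at 0.76 and Hspa1a at 0.81. Mgl2 was nearest to Cenpe (0.23), Vpreb3 (0.34) and Asgr2 (0.53). Clec10a was nearest to Apcdd1 (0.11), Myh7b (0.40) and Scel (0.41), and Klf4 to Emp1 (0.16), Nop58 (0.20) and Kif20b (0.22). Distances were within 0.05 for Mrc1 (Srcin1 at 0.02, Col4a4 at 0.03 and Gng4 at 0.05) and for Ccl22 (Get3 at 0.04, Fndc10 at 0.04 and Ccdc62 at 0.04), of which Fndc10 and Ccdc62 reached the measured level on the LPS array alone. Retnla was nearest to Cks1b (0.11), Phgdh (0.12) and Ccne2 (0.15), and Ccl24 to Slc43a3 (0.06), Cdca2 (0.12) and Fasn (0.12). All genes named here for Mrc1, Mgl2 and Clec10a, and Kif20b, were under the measured level on the LPS array. Hspa1a, Ccne2 and Cdca2 were under it on the PTX array. Their distances thus rest in part on dim readings.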

How the data were processed

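RNA of 3 cultures was hybridized to Affymetrix arrays, 1 per group, from 3 µg of total RNA converted to biotin-labelled cRNA, per the labels' protocols. The deposited table holds 1 linear intensity per probe set and array. How probes were summarized, corrected for background and scaled is not given in the sources used here. Of 45101 probe sets 64 were controls. Of the other 45037, 34945 carried 1 gene symbol in the platform annotation, 932 carried more than one and 9160 are not named by it. Intensities were used as deposited, with a pseudocount of 16 before log2, and a gene took the values of whichever of its probe sets had the highest mean log2 level. The number of arrays limits the precision, and no test was run.

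The members, the 15 further lists and the rule for named genes were chosen with earlier results of these data known. All members were named, from the other lists up to 4 genes per comparison that were 2-fold apart plus fixed pathway genes, and the 3 nearest genes of each member that was 2-fold apart, without predicted genes. Asgr2, Retnlb, Chil4 and other list genes outside that rule were named after their values were seen. Alternatives were a pseudocount of 1 or 64, median, quantile and trimmed mean scaling (2% at each end), no filter or the 75th percentile, the mean over probe sets, and leaving out probe sets that can match several transcripts. Python 3.11.15, numpy 2.4.6, pandas 2.3.3 and matplotlib 3.10.9 were used, and the counting of differences was tested on simulated data.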

Additional observations from a re-analysis of the deposited data

How the results depend on the processing

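Under the 5 settings of pseudocount and scaling, 140 of 150 recomputed member differences stayed on their side of 2-fold, 6 passed it and 4 dropped within it, and 3 (all of Chil3 or Arg1, within 2-fold) changed sign. The other 4 settings bear little on the members: the mean over probe sets changed the 3 differences of Klf4, and the filters and the choice of probe sets by type changed none. The member counts moved by over 1.5 times in 1 case: 2 members instead of 1 were higher in LPS against PBS under median scaling, where Ccl17 passed 2-fold (1.20). Counts over all genes moved more. In LPS against PBS, 799 genes were higher and 1601 lower as deposited, against 1622 higher and 1018 lower under median scaling, 1019 lower with a pseudocount of 64 and 775 lower with the filter at the 75th percentile. In PTX against LPS, 1681 were higher and 767 lower, against 1043 higher and 1756 lower under median scaling, 1101 higher with a pseudocount of 64 and 883 higher with that filter. The stricter filter also left out Ccl24, so that 4 instead of 5 members were lower in PTX against PBS. The members' median in PTX against LPS was -0.11 as deposited, 0.25 under quantile normalization and -0.53 under median scaling, and in LPS against PBS it was -0.86 as deposited and -0.48 under median scaling. No replicate could be left out, and the groups hold no pairs. No paired analysis was possible because each group has 1 array.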

Other observations

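Probe sets of 1 gene disagreed more in the comparisons with the LPS array than in PTX against PBS, also among the pathway genes. Of 21 genes of the pathway lists with several measured probe sets, 9 had readings that lay 2-fold apart or more in LPS against PBS, 10 in PTX against LPS and 0 in PTX against PBS. These shares of 42.9%, 47.6% and 0% stood near those of all genes with several measured probe sets, 37.8%, 40.3% and 3.86%. Jak1, a kinase gene of the interleukin 4 receptor, ran from -4.00 to -0.04 over its 3 probe sets in LPS against PBS, and from -0.19 to 0.32 in PTX against PBS. Klf6, a relative of Klf4, ran from -2.24 to -0.19 in LPS against PBS over its 5 probe sets. Il13ra1, a receptor chain gene, ran from -1.95 to 1.16, so that its direction depended on the probe set. Arg2 and Egr2 gave like values in both of their probe sets. These genes were picked after their values were seen, and the cause was not tested.

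Tnfsf4, the gene of a T cell costimulator, and Crlf2, a receptor chain gene for the alarmin TSLP, were within 2-fold in every comparison. Crlf2 read 3132 after PTX, 3881 after LPS and 2618 after PBS, and Tnfsf4 read 177, 204 and 135.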
